A study of Homo sapiens with 9 samples.

Results

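ERBB2, the gene of the HER2 receptor, was examined together with 4 genes that lie beside it on the long arm of chromosome 17: STARD3, PGAP3, MIEN1 and GRB7. The members were picked by symbol, with the higher ERBB2 level of the treated tumors already known, to see whether that rise extended to neighboring genes. All 5 were found in both deposited count tables, among 16008 genes that the tables share and 16204 that either lists. The libraries came from PC3 cells, a human prostate cancer line, grown under the skin of male NOD/SCID-gamma (NSG) mice, a host without mature T, B or NK cells that still supplies stroma, vessels, muscle and myeloid cells. RNA-Seq was performed on 3 tumors given PBS as vehicle, 3 titled P-DXd (patritumab deruxtecan) and 3 titled T-DXd (trastuzumab deruxtecan). Both agents are antibody-drug conjugates that carry the same topoisomerase I inhibitor, on an antibody to HER3 or to HER2, and the dose of either was 5 mg/kg. According to the series record, the mice were 11 weeks old and had 5 cycles from a tumor size of 90 mm3, which differs from the study's methods for this experiment. For each of the 6 treated libraries the treatment field names the other conjugate, so each group carries its title in its name below (P-DXd-titled, T-DXd-titled), and all 6 treated tumors against PBS is also given, since the conflict cannot touch it.

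HER2 is a receptor tyrosine kinase without a ligand of its own, which signals as the preferred partner of EGFR, HER3 and HER4. In some breast and gastric cancers it is raised by amplification of a stretch of chromosome 17 that usually also carries STARD3, PGAP3, MIEN1 and GRB7, so these genes are often expressed together. STARD3 is a cholesterol-binding protein of late endosome membranes, PGAP3 remodels the lipid of GPI anchors, MIEN1 is a small membrane-anchored protein linked to cell migration, and GRB7 is an SH2 adaptor that binds activated HER2. Copy number was not measured here.

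Distances in kb or Mb, here and below, are between the lower listed coordinates of ERBB2 and of the other gene, whatever its strand. STARD3 lay at -50.85 kb, PGAP3 at -16.79 kb, MIEN1 at 40.58 kb and GRB7 at 50.01 kb, in coordinates of an unnamed build. STARD3 (chromosome 17, 37793318 to 37819737) and GRB7 (37894180 to 37903544) overlapped no other listed gene. ERBB2 (37844167 to 37886679) shared 8884 bases of its span with PGAP3 (37827375 to 37853050) and 1931 bases with MIEN1 (37884749 to 37887040). ERBB2, STARD3 and GRB7 are read from the plus strand, whereas PGAP3 and MIEN1 are read from the minus strand. The lower coordinate of PGAP3 and of MIEN1 is therefore the end of the gene and not its start. Whether the reads were counted by strand is not stated, so it is not known how any reads in the parts that PGAP3 and MIEN1 share with ERBB2 were assigned. Spans include introns, and overlap of exons was not examined.

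Promoter windows, from 250 bases before to 50 bases after the gene's start, were available from RefSeq (GRCh38.p14) for 4 of the 5 members. They are shown because those of ERBB2 and PGAP3 share a stretch. Each window sits at the start of transcription that RefSeq lists for its gene. Other starts within the gene's span were not examined, so a window need not be the main promoter of its gene. What is said of the ERBB2 window, including its shared stretch and its motifs, holds for that start only. The window of ERBB2 is chr17:39687844-39688143 on the plus strand and that of PGAP3 is chr17:39688008-39688307 on the minus strand, with divergent starts 37 bases apart. The 136 bases from 39688008 to 39688143 belong to both and are identical when read on opposite strands. The windows of STARD3 (chr17:39636894-39637193, plus) and MIEN1 (chr17:39730483-39730782, minus) are shown for comparison. Capitals mark each match to CCGGAAG, a core that ETS-family factors recognize, on either strand.
ERBB2: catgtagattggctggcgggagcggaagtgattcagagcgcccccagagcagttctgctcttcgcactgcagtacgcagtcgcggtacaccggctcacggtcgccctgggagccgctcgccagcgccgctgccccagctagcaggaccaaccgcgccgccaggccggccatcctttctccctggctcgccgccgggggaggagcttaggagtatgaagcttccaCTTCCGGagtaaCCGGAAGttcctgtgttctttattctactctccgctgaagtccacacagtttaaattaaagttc
PGAP3: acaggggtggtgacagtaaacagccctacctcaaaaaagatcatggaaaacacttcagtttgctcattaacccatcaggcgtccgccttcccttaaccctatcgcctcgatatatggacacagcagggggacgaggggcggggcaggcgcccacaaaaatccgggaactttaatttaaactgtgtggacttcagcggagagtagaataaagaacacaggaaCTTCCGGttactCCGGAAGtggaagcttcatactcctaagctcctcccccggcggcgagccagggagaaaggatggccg
STARD3: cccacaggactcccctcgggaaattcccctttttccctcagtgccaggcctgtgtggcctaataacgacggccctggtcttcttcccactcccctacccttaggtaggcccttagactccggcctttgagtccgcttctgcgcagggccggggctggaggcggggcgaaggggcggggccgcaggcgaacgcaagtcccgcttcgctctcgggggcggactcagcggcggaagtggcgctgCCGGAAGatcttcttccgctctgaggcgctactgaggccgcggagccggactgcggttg
MIEN1: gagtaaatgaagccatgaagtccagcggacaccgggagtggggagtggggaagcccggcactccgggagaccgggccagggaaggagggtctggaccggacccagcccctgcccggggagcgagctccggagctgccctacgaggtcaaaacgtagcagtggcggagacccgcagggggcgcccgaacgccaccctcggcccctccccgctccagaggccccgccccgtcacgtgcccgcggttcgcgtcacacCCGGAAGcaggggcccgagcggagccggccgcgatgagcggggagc

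ERBB2 and PGAP3 held the same pair of matches, which face each other in the shared stretch, whereas STARD3 and MIEN1 held 1 match each. The pair is the same bases in both windows. The windows of CDK12, MED1 and ORMDL3, other genes within 1 Mb of ERBB2, held no match. A link between matches and levels was not tested. Of 35116 RefSeq promoter windows, 10.3% held at least 1 match and 1.74% held at least 2. TATAAA was found in none of the 4 windows (11.5% of all windows), CCAAT was found once, in that of ERBB2 (34.6%), and GCCNNNGGC, the palindrome of AP-2 factors, was found once, in that of STARD3 (23.2%). Both strands were searched, and a match describes letters in the window and not a bound site.

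Totals ran from 54481702 to 125538606 counts and were higher in all 3 PBS libraries than in any treated one, and levels are therefore given as CPM, counts per 1e6 library counts, after TMM scaling. Among the PBS tumors, replicate 1 stood apart from replicates 2 and 3, with a mean chi-square per gene of 331 and 411 against 39.3 between the other two. The members' log2 differences for all 6 treated tumors are also given without that library. Keratinocyte and skin markers summed to 976 CPM in it, against 193 and 197 CPM in PBS replicates 2 and 3 and 121 to 219 CPM in treated tumors. The tumor markers KRT8, KRT18, EPCAM, CAV1 and VIM were present in all 9 libraries. Their summed level was 1932 to 2099 CPM in PBS and 2502 to 2811 CPM in treated tumors. Singly they went both ways, since with all 6 treated tumors 2 of these 5 rose and 1 fell. Skeletal muscle markers summed to 2.38 to 52.5 CPM in PBS, 80.0 to 4959 CPM in P-DXd-titled and 212 to 274 CPM in T-DXd-titled tumors, the highest being P-DXd-titled replicate 2. Macrophage markers summed to 6.46 to 7.25, 19.1 to 28.0 and 29.6 to 39.8 CPM in the same groups, with CD163, MRC1 and TYROBP not listed. With all 6 treated tumors, 12 of 12 muscle, 4 of 6 macrophage and 5 of 9 fibroblast markers tested rose. Fibroblast markers summed to 1053 to 2020, 1233 to 2141 and 2077 to 2237 CPM, PBS replicate 1 being the highest of its group, and endothelial markers to at most 11.0 CPM in any library. In bulk tumor RNA, fewer cells of a type and less RNA per cell cannot be told apart. The muscle and macrophage markers moved with treatment as ERBB2 did, and their part in the levels below was not tested.

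ERBB2 was counted at 62.5, 118 and 131 CPM in the 3 PBS tumors, at 288, 285 and 372 CPM in the P-DXd-titled tumors, and at 322, 324 and 319 CPM in the T-DXd-titled tumors. Every treated tumor was therefore above every PBS tumor, and PBS replicate 1 held the lowest level. The group means were 104 ± 36.4, 315 ± 49.5 and 322 ± 2.25 CPM (SD, n = 3 each). On the log2 scale ERBB2 was higher than in PBS by 1.60 (SE 0.27) in P-DXd-titled, 1.62 (SE 0.25) in T-DXd-titled and 1.60 (SE 0.20) in all 6 treated tumors, or 3.03-fold in the last comparison. Without PBS replicate 1, the log2 difference for all 6 treated tumors was 1.35. These differences from PBS are what drew attention to the gene, so they are a description. No p-value is given for them or for those of the other members. The levels are of RNA. By protein staining of xenografts, the study found HER2 lower and mainly in the cytoplasm after T-DXd. After P-DXd, it found membrane HER2 similar to vehicle and cytoplasmic staining that varied, with some cells high.

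GRB7 came closest to ERBB2 among the neighbors in the size of its difference. Its level was 13.2, 29.1 and 31.6 CPM in PBS, at 67.7, 60.4 and 62.8 CPM in P-DXd-titled, and at 69.0, 67.0 and 68.1 CPM in T-DXd-titled tumors. The groups did not overlap, and PBS replicate 1 was again the lowest. Log2 differences from PBS were 1.36 (SE 0.30), 1.45 (SE 0.30) and 1.398 (SE 0.22) for P-DXd-titled, T-DXd-titled and all 6 treated tumors, and the last was 1.11 without PBS replicate 1.

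PGAP3, whose promoter window shares a stretch with the one shown for ERBB2, followed. Its levels were 7.01, 12.0 and 13.8 CPM in PBS, at 28.4, 26.7 and 27.8 CPM in P-DXd-titled, and at 26.3, 25.0 and 29.6 CPM in T-DXd-titled tumors. Again no treated tumor reached down to the PBS range. The log2 differences were 1.33 (SE 0.24), 1.29 (SE 0.24) and 1.3003 (SE 0.18) in the order given for GRB7, and 1.08 for all 6 treated tumors without PBS replicate 1. PGAP3 shares 8884 bases with the span of ERBB2, introns included, and was counted at a far lower level. Whether its counts hold reads of ERBB2 was not tested, and overlap of exons was not examined.

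STARD3 differed by less, being counted at 53.8, 61.2 and 57.2 CPM in PBS, at 77.2, 82.5 and 89.9 CPM in P-DXd-titled, and at 80.3, 80.1 and 86.4 CPM in T-DXd-titled tumors. The groups were separate and tight, since the 3 PBS tumors had an SD of 3.71 CPM around 57.4 CPM. The log2 differences were 0.53 (SE 0.10), 0.50 (SE 0.08) and 0.51 (SE 0.07), a fold of 1.42 for all 6 treated tumors, and the last log2 value was 0.48 without PBS replicate 1.

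MIEN1 resembled STARD3, with levels of 13.6, 16.99 and 16.2 CPM in PBS, 21.4, 23.8 and 24.7 CPM in P-DXd-titled, and 23.7, 25.9 and 24.0 CPM in T-DXd-titled tumors. All treated levels again lay above all PBS levels. The log2 differences were 0.57 (SE 0.13), 0.64 (SE 0.12) and 0.60 (SE 0.09), with 0.52 for all 6 treated tumors without PBS replicate 1. The fold of 1.51 for all 6 treated tumors lies next to the 1.5-fold minimum used below.

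**Figure D1:**
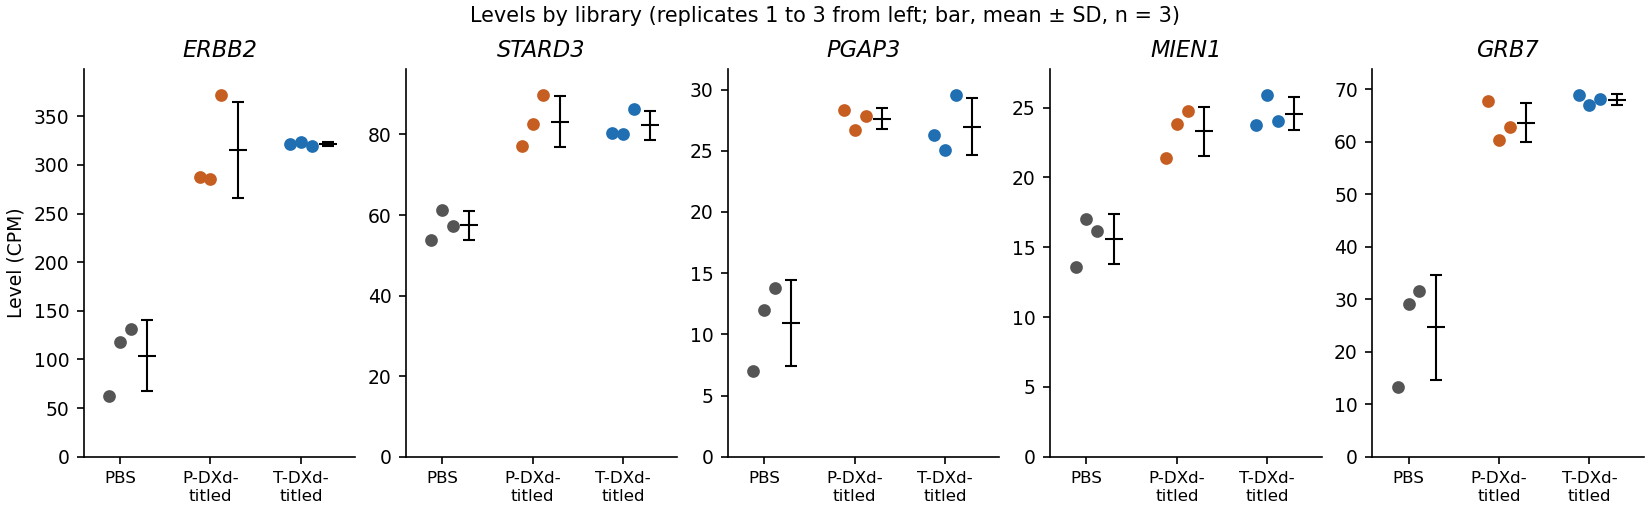
Level of each member (CPM, linear axis from 0, a scale of its own per gene) in the 9 libraries, with replicates 1 to 3 from left to right in each group and the bar showing mean ± SD (n = 3). Every treated library lies above every PBS library for all 5 genes, and the step is wide for ERBB2, PGAP3 and GRB7 and narrow for STARD3 and MIEN1.

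Elsewhere a gene is said to be called if its adjusted p from edgeR's quasi-likelihood test was at most 0.05 and its fold change at least 1.5. By that rule, used on the members only to describe them, 3 of 5 counted as higher with the P-DXd-titled tumors. With the T-DXd-titled tumors 4 of 5 did, and with all 6 treated tumors 4 of 5 did. Across all genes tested, 11.2%, 13.1% and 15.2% were called higher in these comparisons, and called either way were 25.0%, 28.6% and 32.2%. STARD3 stayed under the fold minimum in each, and MIEN1 did so with the P-DXd-titled tumors at 1.49-fold. The 5 of 5 members without overlap between groups stood against 28.2%, 31.9% and 26.2% of all genes with every treated library above every PBS library. Since the members were chosen with these values known, nothing is read from their counts.

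Levels of different genes were compared per kilobase of exon, scaled to the same sum in each library, with exon lengths from GENCODE. In PBS tumors ERBB2 (43.1 ± 16.4, SD, n = 3) and STARD3 (41.7 ± 4.23) were level within their spread, followed by MIEN1 (32.5 ± 4.99) and GRB7 (29.4 ± 12.7), which were also within theirs, and PGAP3 was lowest (12.9 ± 4.55). In the 6 treated tumors the order was ERBB2 (118 ± 10.3), GRB7 (70.2 ± 4.38), STARD3 (54.2 ± 2.14), MIEN1 (45.0 ± 2.91) and PGAP3 (28.9 ± 1.31), with gaps wider than the SD of either neighbor in the order. Among all genes with a length, ERBB2 moved from a mean percentile of 70.7 in PBS to 90.1 in treated tumors, GRB7 from 62.2 to 82.9, PGAP3 from 46.0 to 65.4, MIEN1 from 65.7 to 74.7 and STARD3 from 71.4 to 78.2.

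A ratio of counts within 1 library needs no scaling between libraries. The change of such a ratio follows from the log2 differences given above, so it describes the same values and is no further evidence. The ratio of ERBB2 to STARD3 was 1.16 to 2.29 in PBS and 3.45 to 4.14 in treated tumors, a change of 2.23-fold between the geometric means. The ratio of ERBB2 to MIEN1 was 4.61 to 8.11 in PBS and 12.0 to 15.1 in treated tumors, a change of 2.08-fold. ERBB2 thus gained on both by more than the spread between libraries. The ratio of ERBB2 to PGAP3 moved from 8.92 to 9.81 in PBS to 10.2 to 13.4 in treated tumors, only 1.24-fold, though still without overlap. The ratio of ERBB2 to GRB7 was 4.04 to 4.74 in PBS and 4.26 to 5.93 in treated tumors, which overlap, and changed by 1.12-fold. The ratio of STARD3 to MIEN1 likewise overlapped, at 3.53 to 3.97 in PBS and 3.09 to 3.64 in treated tumors. Without PBS replicate 1 the log2 change of the ratio was 0.87 for STARD3, 0.82 for MIEN1, 0.27 for PGAP3 and 0.24 for GRB7, against 1.15, 1.06, 0.31 and 0.17 with it.

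**Figure D2:**
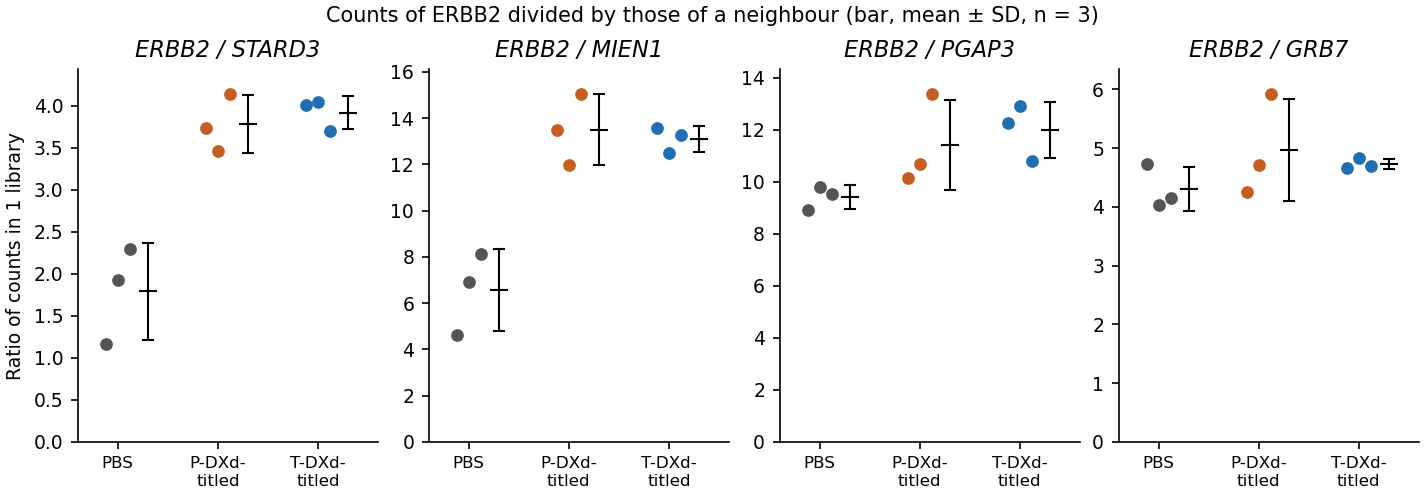
Counts of ERBB2 divided by those of each neighbor in the same library (linear axis from 0, a scale of its own per panel), for PBS, P-DXd-titled and T-DXd-titled tumors, with bars showing mean ± SD (n = 3). The ratios to STARD3 and MIEN1 about double with treatment, that to PGAP3 shifts slightly without overlap, and that to GRB7 overlaps between PBS and treated tumors.

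Among the untreated tumors the members divided in a similar way. PBS replicate 1 held 1.99-fold less ERBB2, 2.298-fold less GRB7 and 1.83-fold less PGAP3 than the geometric mean of PBS replicates 2 and 3, but only 1.22-fold less MIEN1 and 1.099-fold less STARD3. That library also held the most skin and fibroblast marker counts of the PBS tumors, as given above, and their part in this difference was not tested. Over all 16008 genes the median absolute log2 difference of replicate 1 from the other two was 0.38, and ERBB2 was at percentile 84.1 and GRB7 at percentile 88.5 of these differences. The 6 treated tumors exceeded PBS replicates 2 and 3 alone by 2.55-fold for ERBB2, 2.17-fold for GRB7, 2.12-fold for PGAP3, 1.44-fold for MIEN1 and 1.396-fold for STARD3.

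The contrast between the conjugates took no part in choosing the members and was tested. ERBB2 was 0.03 lower on the log2 scale in P-DXd-titled than in T-DXd-titled tumors (log2 fold change -0.03, 95% interval -0.26 to 0.20). The intervals were -0.15 to 0.18 for STARD3, -0.16 to 0.23 for PGAP3, -0.27 to 0.12 for MIEN1 and -0.24 to 0.05 for GRB7. Each interval included 0 and none reached a 1.5-fold difference in either direction. Unadjusted p from edgeR's quasi-likelihood test was 0.785 for ERBB2, 0.823 for STARD3, 0.702 for PGAP3, 0.399 for MIEN1 and 0.174 for GRB7, and the adjusted p was 1.00 for each. None of the 5 members was called by edgeR or by DESeq2, and none had an unadjusted p under 0.05. Of all genes in this contrast, 0.0273% were called, and 3.69% (540 genes) had a raw p below 0.05. The levels of the conjugate groups overlapped for all 5 members, and a p that misses the threshold does not show that the conjugates act alike. If the treatment field rather than the title is right, the sign of each difference turns and its size stays.

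**Figure D3:**
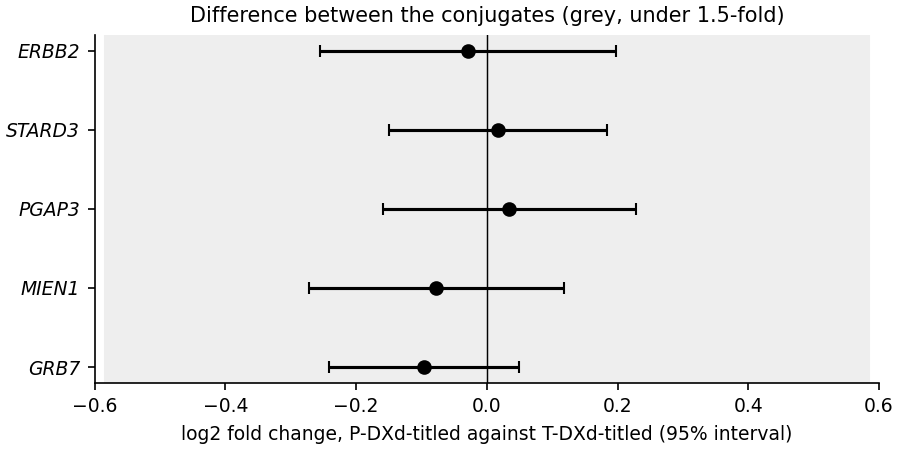
Difference of each member between P-DXd-titled and T-DXd-titled tumors (log2 fold change, point, with its 95% interval, n = 3 per group), with grey marking differences under 1.5-fold. All 5 intervals include 0 and lie inside the grey band, from -0.27 at the lowest to 0.23 at the highest.

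To see how far the pattern reached, the other listed genes within 1 Mb of the start of ERBB2 were tested against PBS. Of 41 such genes, 38 passed the filter on low counts. With all 6 treated tumors 4 rose and 7 fell, 28.9% of those tested against 32.2% of all genes. With the P-DXd-titled tumors 3 rose and 8 fell (28.9% against 25.0%), and with the T-DXd-titled tumors 4 rose and 6 fell (26.3% against 28.6%). Their median log2 fold changes were 0.04, 0.03 and 0.06 in that order, next to -0.01, -0.01 and -0.02 over all genes. The P-DXd-titled count of 11 called genes was 7 without P-DXd-titled replicate 1 and 6 without replicate 2 or replicate 3, and the P-DXd-titled median was 0.15 without PBS replicate 1.

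**Figure D4:**
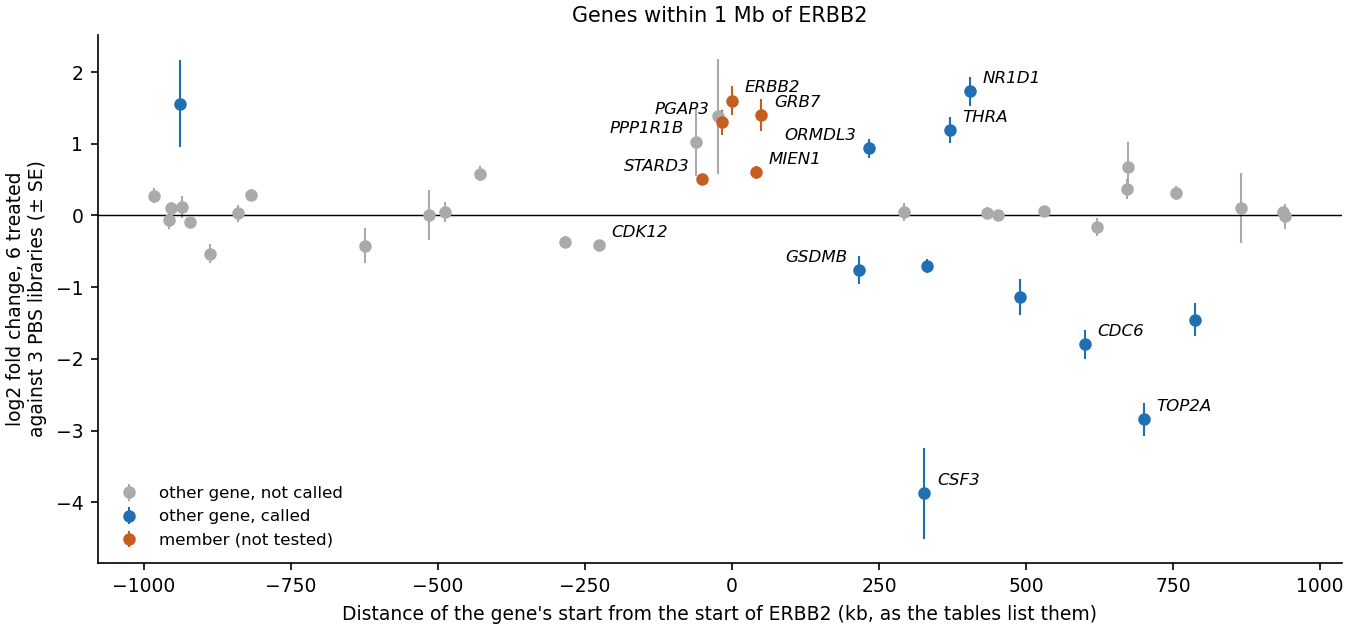
Log2 fold change of all 6 treated against 3 PBS tumors (± SE) for each tested gene within 1 Mb of ERBB2. The horizontal axis is the distance in kb between the lower listed coordinates of the gene and of ERBB2, whatever the strand. Members are in orange (marked as not tested, since no p-value is given for them), called genes in blue and others in grey. The 5 members lie between 0.51 and 1.60, whereas called genes farther out lie on both sides of 0, from -3.88 for CSF3 to 1.73 for NR1D1.

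Closest to the members, 6 further genes were listed within 250 kb. ORMDL3, an endoplasmic reticulum protein that restrains sphingolipid synthesis, lies at 233.1 kb and was the only one called with each conjugate. It was counted at 36.3, 55.5 and 59.3 CPM in PBS, at 89.7, 104 and 101 CPM in P-DXd-titled, and at 96.3, 102 and 94.2 CPM in T-DXd-titled tumors, with no overlap. Its log2 fold changes were 0.96 (SE 0.18, edgeR adjusted p = 0.00945), 0.93 (SE 0.17, adjusted p = 0.00662) and 0.94 (SE 0.13, adjusted p = 0.000206), and the last was 0.76 without PBS replicate 1.

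GSDMB, a pore-forming gasdermin beside ORMDL3, moved the other way. Its level was 3.76, 5.63 and 5.57 CPM in PBS, at 2.92, 3.19 and 2.23 CPM in P-DXd-titled, and at 2.95, 3.99 and 2.62 CPM in T-DXd-titled tumors. It fell with all 6 treated tumors (log2 fold change -0.76, SE 0.20, edgeR adjusted p = 0.0078), and the 2 groups of libraries overlapped through PBS replicate 1. With the P-DXd-titled tumors alone the adjusted p was 0.0384, and that call was lost without any 1 of 5 libraries (PBS replicates 2 and 3 and each P-DXd-titled replicate, adjusted p 0.0693 to 0.132) and with a block on the animal code digit (adjusted p = 0.058).

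On the other side, CDK12, a kinase of RNA polymerase II at -226.4 kb, was lower in treated tumors. It was counted at 104, 98.9 and 94.8 CPM in PBS, at 84.1, 74.4 and 76.5 CPM in P-DXd-titled, and at 74.6, 72.6 and 71.2 CPM in T-DXd-titled tumors. No treated level reached the PBS range, and the log2 fold change of -0.42 for all 6 treated tumors (SE 0.07, edgeR adjusted p = 0.000555) was under the fold minimum.

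PPP1R1B, an inhibitor of protein phosphatase 1 at -61.17 kb, was the least certain. Its level was 1.28, 9.09 and 11.0 CPM in PBS, at 18.2, 12.98 and 17.8 CPM in P-DXd-titled, and at 13.2, 12.3 and 13.6 CPM in T-DXd-titled tumors. The groups did not overlap, but PBS replicate 1 was 7.68-fold under the other two and the log2 fold change of 1.03 for all 6 treated tumors was not called (SE 0.48, edgeR adjusted p = 0.0903). Without PBS replicate 1 it was 0.54 (adjusted p = 0.0137, under the fold minimum), and without PBS replicate 3 it was 1.48 and called (adjusted p = 0.0405). With the P-DXd-titled tumors, leaving out PBS replicate 1 gave 0.70 and a call (adjusted p = 0.011), against 1.19 with that library (adjusted p = 0.184).

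TCAP and PNMT lie at -23.73 and -19.93 kb, closer than STARD3, and were barely expressed. TCAP, a sarcomere protein of muscle, was at 0.257 to 0.769 CPM in PBS and 0.321 to 4.15 CPM in treated tumors, highest in P-DXd-titled replicate 2, the library with the most muscle marker counts, and was not called with all 6 (log2 fold change 1.38, SE 0.80, edgeR adjusted p = 0.162). Without that library its log2 fold change was 0.56. PNMT, which makes epinephrine, was at most 0.203 CPM and did not pass the filter.

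From 250 kb to 1 Mb, 3 genes rose and 6 fell with all 6 treated tumors among 33 tested, which is 27.3% against 32.2% of all genes. NR1D1, a circadian repressor, was at 8.15 to 11.3 CPM in PBS and 23.7 to 46.1 CPM in treated tumors (log2 fold change 1.73, SE 0.21, edgeR adjusted p = 7.11e-05), highest in P-DXd-titled replicate 2. THRA, a thyroid hormone receptor that overlaps NR1D1 by 1081 bases, was at 30.6 to 39.0 and 57.2 to 113 CPM (1.19, SE 0.18, edgeR adjusted p = 0.000337). THRA also overlaps MED24, which fell (-0.71), by 2926 bases. How any reads in these stretches were assigned is not known. CTB-58E17.5 stayed under 1 CPM in every library (1.56, SE 0.61, adjusted p = 0.0482), and leaving out any 1 of 6 libraries, or a block on the animal code digit (adjusted p = 0.0671), ended its call.

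The 3 largest falls included genes of the cell cycle. CSF3, which encodes the growth factor G-CSF, was at 48.0, 9.13 and 3.85 CPM in PBS and 0.673 to 2.25 CPM in treated tumors (log2 fold change -3.88, SE 0.63, edgeR adjusted p = 0.000489), and its value was -2.21 without PBS replicate 1. TOP2A, the topoisomerase II of dividing cells, was at 231, 150 and 139 CPM in PBS and 15.4 to 33.5 CPM in treated tumors (-2.84, SE 0.23, adjusted p = 7.64e-06). CDC6, a loader of the replicative helicase, was at 39.3 to 86.8 CPM in PBS and 14.3 to 18.9 CPM in treated tumors (-1.80, SE 0.21, adjusted p = 5.63e-05). Genes on the same arm within 1 Mb of ERBB2 thus differed in both directions beyond the spread between tumors.

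Genes tied to HER2 by function were then described from a list of 19 partners and turnover factors. With all 6 treated tumors 4 rose (TOB1, MUC4, ERBB3 and GAB1) and 3 fell (CBL, ERBB4 and ERRFI1), with a median log2 fold change of 0.09 over the list. Over all genes 15.2% rose and 32.2% were called either way, which bears on this list and the next ones alike. With each conjugate alone 1 rose and 2 fell. CBL, a ubiquitin ligase for receptor kinases, fell from 99.2 to 117 CPM in PBS to 41.7 to 51.1 CPM in treated tumors (-1.25, SE 0.08, edgeR adjusted p = 3.54e-06). ERRFI1, a feedback inhibitor of EGFR-family kinases, fell from 186 to 260 CPM to 83.9 to 117 CPM (-1.20, SE 0.11, adjusted p = 1.83e-05). MUC4, a membrane mucin that binds HER2, was at 0.590 to 1.97 CPM in PBS and 2.61 to 3.73 CPM in treated tumors (1.02, SE 0.33, adjusted p = 0.0228, and 0.66 without PBS replicate 1).

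Among the other receptors of the family, each call changed when PBS replicate 1 was left out. ERBB3, the gene of HER3, was at 26.9, 66.0 and 72.8 CPM in PBS, at 103, 90.7 and 104 CPM in P-DXd-titled, and at 87.8, 92.5 and 95.5 CPM in T-DXd-titled tumors. The groups did not overlap, and its log2 fold change of 0.77 (SE 0.24, edgeR adjusted p = 0.0192) became 0.45 and fell under the fold minimum without PBS replicate 1. These levels are of RNA. By protein staining, the study found HER3 significantly higher in residual tumors after either conjugate than with vehicle. EGFR was at 426 to 587 CPM in PBS and 347 to 429 CPM in treated tumors (-0.48, SE 0.10, adjusted p = 0.00303), under the minimum with that library and called without it (-0.60). ERBB4 was at 1.33 to 4.84 and 0.498 to 1.403 CPM (-1.23, SE 0.42, adjusted p = 0.0289), and its call was lost without PBS replicate 1 (-0.38, adjusted p = 0.349), P-DXd-titled replicate 3 (adjusted p = 0.0507) or T-DXd-titled replicate 2 (adjusted p = 0.0532), and with a block on the animal code digit (adjusted p = 0.0568).

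Of 12 factors known to act on ERBB2 transcription, 9 were listed, and 2 rose while none fell in each comparison with PBS (median log2 fold change 0.10 with all 6 treated tumors). ELF3, an epithelial ETS factor, was at 6.26, 25.05 and 32.2 CPM in PBS and 58.0 to 75.1 CPM in treated tumors (1.63, SE 0.38, edgeR adjusted p = 0.00438, and 1.21 without PBS replicate 1). Its call with the P-DXd-titled tumors was lost without PBS replicate 2 or any P-DXd-titled replicate (edgeR adjusted p 0.0838 to 0.114), and that with the T-DXd-titled tumors without PBS replicate 2 or any T-DXd-titled replicate (0.0772 to 0.109) and with the digit block (0.0676). CITED2, a coactivator of AP-2 factors, was at 39.7 to 42.0 and 56.6 to 90.1 CPM (0.88, SE 0.13, adjusted p = 0.000313). The AP-2 genes TFAP2A (-0.12, adjusted p = 0.255) and TFAP2C (0.24, adjusted p = 0.0801) were not called, and TFAP2B, GATA4 and PAX2 were not listed.

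Relatives of the neighbors were described last, from 10 genes of which 1 rose and 3 fell in each comparison with PBS (median log2 fold change 0.11 with all 6 treated tumors). STARD4, a cholesterol carrier with the same lipid-binding domain as STARD3, fell from 33.4 to 39.3 CPM in PBS to 5.11 to 7.03 CPM in treated tumors (-2.62, SE 0.12, edgeR adjusted p = 6.99e-07). GRB10, an adaptor related to GRB7, fell from 257 to 371 CPM to 149 to 163 CPM (-1.12, SE 0.10, adjusted p = 1.07e-05). PGAP1, a GPI-anchor enzyme of the same pathway as PGAP3, fell from 17.7 to 18.3 CPM to 10.6 to 12.7 CPM (-0.61, SE 0.08, adjusted p = 0.000169), and was under the fold minimum without T-DXd-titled replicate 3. NPC2, which exports cholesterol from late endosomes, rose from 71.5 to 95.3 CPM to 141 to 157 CPM (0.84, SE 0.09, adjusted p = 4.44e-05).

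Likeness of profile was measured as the root mean square difference of log2 CPM, each gene centered on its own mean over the 9 libraries, among 12471 genes whose mean count was 100 or more. The 5 genes nearest to ERBB2 were PLEKHF1 (0.0739), APP (0.0743), MMP15 (0.0768), COL18A1 (0.0858) and PPL (0.104), on chromosomes 19, 21, 16, 21 and 16. GRB7 ranked 35 (0.153) and PGAP3 ranked 72 (0.193) in this order, whereas MIEN1 ranked 1527 (0.543) and STARD3 ranked 2111 (0.600). ORMDL3 ranked 450 (0.355). The 5 nearest genes, all on other chromosomes, were picked as the smallest differences among 12471 genes. The order rests on the same libraries, whose step between PBS and treatment was known when the members were chosen. The ranks of GRB7 and PGAP3 therefore describe the differences given above and are no further evidence.

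Seen from the other members, GRB7 was nearest to USP54 (0.0611), STARD3 to OS9 (0.0410) and MIEN1 to OXLD1 (0.0516), and of these OXLD1 is also on chromosome 17. STARD3 and MIEN1 lay 0.0911 apart, MIEN1 being rank 179 for STARD3 and STARD3 rank 81 for MIEN1. GRB7 and PGAP3 lay 0.139 apart. These are descriptions over 9 libraries in 3 groups, which share the step between PBS and treatment and the low PBS replicate 1.

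**Figure D5:**
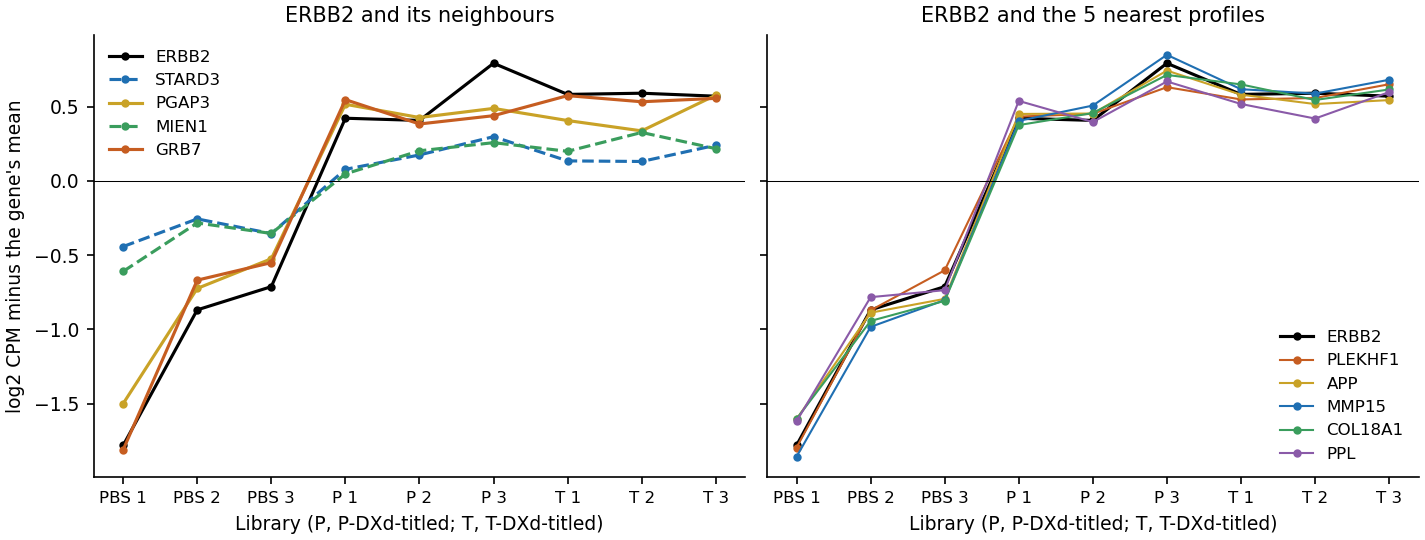
Log2 CPM minus the gene's mean over the 9 libraries, for the 5 members (left) and for ERBB2 with its 5 nearest genes (right), with a line joining the points of 1 gene and no order among replicates. ERBB2, GRB7 and PGAP3 dip far below their means in PBS replicate 1 and lie above them in treated tumors, STARD3 and MIEN1 stay within a narrower band, and the 5 genes of other chromosomes differ from ERBB2 by at most 0.104 (root mean square).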

How the data were processed

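Bulk RNA-Seq of 9 PC3 xenografts was analysed, 3 per group by title. Cutadapt trimming, STAR alignment to GRCh38 and featureCounts counting were done by the authors, per the methods and the submitters' processing notes. The deposited tables hold raw counts per gene, 16098 and 16114 protein-coding genes with at least 5 counts in at least 2 libraries. PBS counts were checked and differed for 0 genes between the tables. Removal of mouse reads is not given in the sources used here. Only 44 of 15869 gene identifiers found in GENCODE had the coordinates that the tables list, so table coordinates carry no build and no sequence was read by them. Per-sample columns left unused numbered 0.

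Counts were scaled by TMM, filtered with filterByExpr and tested with edgeR 4.0.16 (R 4.3.3), quasi-likelihood F test, two-sided, Benjamini-Hochberg over all genes. Each conjugate against PBS was fitted on 6 libraries, and all 6 treated on 9. SE is that of the log2 fold change. DESeq2 1.42.0, RLE size factors, other filters, a block on the first digit of the animal code, other windows and leaving out libraries were alternatives. Code was tested on simulated data. Replicate pairs had a mean chi-square of 18.4 to 411 per gene, so none was a duplicate. Titles carry a separate code per tumor, and p-values measure the spread between these tumors.

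The members and gene lists were chosen with earlier results of these data known. Named were the members, genes within 250 kb, the 3 largest rises and falls called farther out to 1 Mb, up to 4 called genes per list by absolute log2 fold change, ERBB3, EGFR and the nearest profiles. Some genes that this rule or the marker lists name are not reported here. TOB1, GAB1, TFAP2A and TFAP2C were added after their values were seen.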

Additional observations from a re-analysis of the deposited data

Results flagged for a closer look

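Within the 6 treated tumors, 1 of 9 quantities examined had a library far from the others. The ratio of ERBB2 to GRB7 counts was 5.93 in P-DXd-titled replicate 3 and 4.26 to 4.83 in the other 5, a gap of 0.657 of the whole range. That tumor held the highest ERBB2 level (372 CPM) and a GRB7 level of 62.8 CPM. Chance alone sets apart about 1 in 20 such groups.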

How the results depend on the processing

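The log2 differences of the 5 members kept their direction against PBS, and 0 of 5 members were called between the conjugates, under DESeq2, RLE size factors, other filters, 1 fit of all 9 libraries, the digit block and each left-out library. Against PBS, with the P-DXd-titled or all 6 treated tumors, the direction also held without PBS replicate 1 and P-DXd-titled replicate 2 together (chosen after seeing the data). ERBB2 ranged from 1.35 to 1.80 for all 6 treated tumors without 1 library, and 1.38 without that pair. With the block on the first digit of the animal code it was 1.57, and 10 window genes were called against 11. Called window genes with the P-DXd-titled tumors numbered 6 to 10 without 1 library. Within 0.5 Mb they were 7 of 16 tested (3 rose, 4 fell), which is 43.8% against 25.0% of all genes. Within 2 Mb they were 17 of 64 (26.6%). With the T-DXd-titled tumors they were 7 of 16 within 0.5 Mb (4 rose, 3 fell, 43.8% against 28.6%) and 22 of 65 within 2 Mb (33.8%). With all 6 treated they were 7 of 16 within 0.5 Mb (3 rose, 4 fell, 43.8% against 32.2%) and 22 of 64 within 2 Mb (34.4%). With no fold minimum 19 were called with all 6, and the share of all genes by that rule was not computed. Without 1 library, the window median ranged from -0.042 to 0.15 with the P-DXd-titled tumors and from -0.034 to 0.11 with all 6. Over all genes, calls fell from 3742 to 1857 without P-DXd-titled replicate 3 and from 4263 to 2820 without T-DXd-titled replicate 3, with fewer samples. Between the conjugates 4 genes were called, 23 by DESeq2 and 0 in 1 fit of all 9 libraries; the cause was not tested. For single named genes over all comparisons, 1099 alternatives kept the call or its absence, 39 lost it and 19 gained it, and no called value changed sign. With 3 tumors per group, depth was not the limit for the members, whose lowest count was 630.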
